A study of Mus musculus with 32 samples.

Results

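The liver of mice lacking E2f1 was compared with wild-type liver after systemic treatment with saline, on 12 arrays of 1 mouse each, out of the 32 arrays of the series. The 6 wild-type mice carried the genotype E2F1+/+ on the strain that the labels write B6x126 F2, and the 6 knockout mice came from a B6;129 strain carrying E2F1-/-. Both groups received saline and both were labelled as collected at 20 h, so that no saline group stands for 6 h. The other 20 arrays held mice of the same 2 genotypes given lipopolysaccharide (LPS), the bacterial endotoxin, and collected at 6 h or 20 h. The strain label differs wherever the genotype differs, so that a difference between the mutation and the rest of the genetic background cannot be told apart here. Sex, age, the dose and the deleted stretch of E2f1 are not given in the sources used here. The tissue label is liver, while the extraction text names lung. Alb, the albumin gene of hepatocytes, lay between 9.55 and 11.23 on every saline array on the log2 scale described next. The summed linear level of 6 lung epithelium markers was 1.51 to 2.61 on the wild-type arrays and 1.61 to 5.22 on the knockout arrays, against 1873 to 4346 for 16 hepatocyte genes.

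E2F1 is a transcription factor that dimerises with a DP protein and binds short GC-rich sites upstream of genes for DNA synthesis and entry into S phase. The retinoblastoma protein and its relatives RBL1 and RBL2 hold E2F factors inactive in cells that do not divide, and cyclin-dependent kinases release them. Adult hepatocytes are mostly quiescent, and E2F1 has also been linked in mice to apoptosis, lipid metabolism and inflammatory gene expression. The values below are log2 signals minus the 75th percentile of the same array, so that 0 is the signal of the probe at that percentile. A gene was called when the adjusted p of the limma fit across all 32 arrays was under 0.05, with Benjamini-Hochberg adjustment over 19199 gene names.

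Replicate 1 of the knockout saline group stood apart from its label. A score was set to 0 at the mean of wild-type saline mice and to 1 at the mean of wild-type mice 6 h after LPS, over the genes that differed between them. The 6 wild-type saline arrays scored between -0.03 and 0.08, and knockout replicates 2 to 6 between -0.005 and 0.06. Knockout replicate 1 scored 0.89. Its correlation with the other saline arrays was at most 0.911, while every other pair of saline arrays correlated at 0.946 or more. Lcn2, an iron-binding protein of neutrophils and inflamed hepatocytes, stood at 7.71 on this array and between -2.99 and 2.15 in the other knockouts. Tnf, the inflammatory cytokine, stood at 0.74 against -6.02 to -4.38, and Cyp7a1, whose enzyme sets the rate of bile acid synthesis, at -1.79 against 0.51 to 2.57. One array of the knockout group at 6 h of LPS, replicate 1, scored 0.13 while the other 3 scored 0.90 to 0.98. These 2 libraries lay side by side on one slide, at positions 1 and 2. Whether labels were exchanged was not tested. Differences and list medians are given with and without knockout saline replicate 1, and counts at an unadjusted p without it. The labels were kept as deposited.

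**Figure D1:**
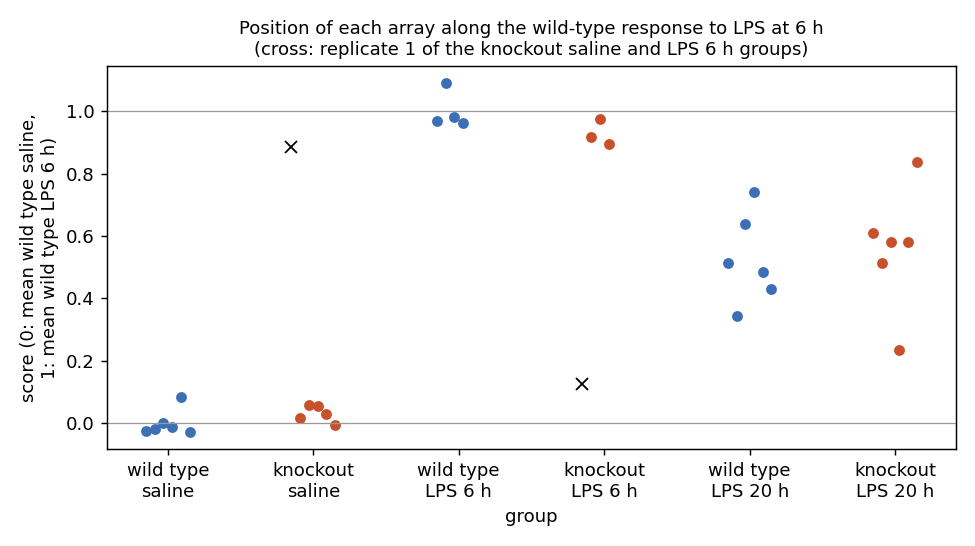
Score of each array (vertical axis, no unit) along the wild-type response to LPS at 6 h, by group (horizontal axis); each point is 1 mouse. Knockout saline replicate 1, a cross, lies at 0.89 among the LPS arrays, and knockout LPS 6 h replicate 1, the other cross, lies at 0.13 near the saline arrays.

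With all arrays, 64 genes were called between the genotypes on saline, 0.333% of those tested, of which 26 were higher (0.135%) and 38 lower (0.198%) in the knockouts. Without knockout replicate 1, 51 genes were called, or 0.266%, with 20 higher (0.104%) and 31 lower (0.161%). The fits shared 46 calls, 16 higher and 30 lower, and all 69 genes called in either fit had the same direction in both. The values of the wild-type and knockout mice did not overlap for 34 of the 46 with all arrays and for 39 of the 46 without replicate 1. Over all genes tested, such a gap was found for 1.26% and 2.05%. An unadjusted p under 0.05 was reached by 1264 genes with all arrays and 1029 without replicate 1. When 1 saline array was left out at a time, the count ranged from 37 to 64. It was 37, 40, 39 and 37 without wild-type replicates 1, 2, 3 and 4, and 39, 42 and 42 without knockout replicates 3, 4 and 5. Of the 69 called names, 26 were clone, transcript or locus identifiers without a gene symbol on the array.

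At 0.266% to 0.333% of all genes called, lists as short as those below are likely to hold no call, so that a count of 0 is near the background. E2f1 itself was measured first, as the targeted gene. It lay at -5.04, -3.36 and -2.29 (lowest, median, highest) in wild-type mice and at -4.55, -3.35 and -2.57 in knockout replicates 2 to 6, and at -2.39 in replicate 1. The groups overlapped. The difference was -0.04 ± 0.58 (SE) on the log2 scale without replicate 1 and 0.12 with it, and the adjusted p of the limma fit was 1 and 0.987. Both probes of the gene lie at its 3′ end, at chr2:154386004-154386063 and chr2:154385742-154385801 of mm9 as the array design gives them. A probe outside the deleted part would still see a transcript, so these values check neither the deletion nor the labels. After LPS, the same probe averaged -2.05 ± 1.57 (SD, n = 6) in knockouts and -5.57 ± 0.88 (SD, n = 5) in wild types at 20 h (adjusted p of limma = 0.00348). It was well above background on all 6 of these knockout arrays but on only 2 of the 5 wild-type arrays. The wild-type mean at 20 h therefore lies near background, and the size of this difference is uncertain.

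Of 15 genes of the E2F and retinoblastoma family, 0 were called by limma in either fit and 0 had an unadjusted p under 0.05 without replicate 1, and their median difference was -0.08 without replicate 1 and -0.16 with it, beside -0.03 and -0.008 over all genes tested. E2f6, a repressive member and the brightest of the list, lay at 2.23, 2.52 and 3.16 in wild types and at 1.88, 2.27 and 2.78 in knockout replicates 2 to 6. The ranges of the single members' differences ran from -0.78 for E2f8, an atypical repressor, to 0.53 for E2f7, its relative. Of 46 measured genes for DNA replication and the G1/S transition, 0 were called by limma in either fit. Their median was -0.13 without replicate 1 and -0.14 with it. Without replicate 1, 3 had an unadjusted p under 0.05, beside 5.36% of all genes. These were lower in knockouts: Prim2 (-1.65), Mcm6 (-1.49) and Cdt1 (-0.83), with an adjusted p of 0.519, 0.569 and 0.898. Means were higher in knockouts for 15 of the 46, beside 45% of all genes. Mcm10, a replication initiation factor, lay between 4.99 and 5.83 in wild types and between 4.17 and 5.96 in knockout replicates 2 to 6, so that the groups overlapped. Of 27 genes for G2/M and mitosis, 0 were called by limma in either fit and 0 had an unadjusted p under 0.05 without replicate 1, with a median of -0.06 and, with all arrays, -0.11. The medians were -0.09 and -0.17 for 25 DNA repair genes. For 32 p53 targets and apoptosis genes they were -0.02 without replicate 1 and 0.32 with it, again with 0 calls by limma and with 1 and 3 genes at an unadjusted p under 0.05. One cell-cycle inhibitor outside these lists was called. Cdkn1b, which encodes p27Kip1 and restrains cyclin-dependent kinases, is described with the rises.

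The promoters show how often an E2F site of fixed letters occurs beside these genes. The sequences come from RefSeq on GRCm38.p6, in windows of 300 bases around the annotated start, read in the direction of the gene. The motifs searched on both strands were TTTCGCGC, TTTGGCGC, TTTCCCGC and TTTGCCGC. At least 1 of them lay in a promoter of 2.6% of 27025 genes, of 42.1% of the 38 G1/S genes with a promoter in the table, and of 3 of the 43 called genes with one. The 16 G1/S genes with a motif had a median difference of -0.12 without replicate 1 and -0.17 with it. The 22 without a motif had -0.13 in both fits, and 0 of either set were called by limma. The 3 called genes with a motif and the 2 brightest G1/S genes with a motif are shown, with the motif in capitals.
Rprd1b (chr2:158028247-158028546, + strand): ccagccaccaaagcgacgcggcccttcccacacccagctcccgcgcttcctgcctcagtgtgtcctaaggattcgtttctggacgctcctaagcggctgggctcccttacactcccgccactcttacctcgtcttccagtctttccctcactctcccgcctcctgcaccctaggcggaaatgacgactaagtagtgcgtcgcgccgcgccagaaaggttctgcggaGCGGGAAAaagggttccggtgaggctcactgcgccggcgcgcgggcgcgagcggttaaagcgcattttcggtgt
Bcmo1 (chr8:117095615-117095914, + strand): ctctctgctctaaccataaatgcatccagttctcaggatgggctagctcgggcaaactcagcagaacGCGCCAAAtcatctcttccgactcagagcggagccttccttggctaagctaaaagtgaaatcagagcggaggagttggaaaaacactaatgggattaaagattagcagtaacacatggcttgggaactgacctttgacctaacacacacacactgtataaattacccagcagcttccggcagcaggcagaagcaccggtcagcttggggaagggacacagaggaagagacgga
Mrps12 (chr7:28741772-28742071, - strand): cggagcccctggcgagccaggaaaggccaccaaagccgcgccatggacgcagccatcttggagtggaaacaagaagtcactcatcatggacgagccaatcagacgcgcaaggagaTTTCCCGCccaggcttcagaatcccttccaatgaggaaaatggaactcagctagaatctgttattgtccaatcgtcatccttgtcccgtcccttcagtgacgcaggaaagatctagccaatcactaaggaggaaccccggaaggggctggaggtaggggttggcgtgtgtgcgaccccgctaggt
Mcm7 (chr5:138171834-138172133, - strand): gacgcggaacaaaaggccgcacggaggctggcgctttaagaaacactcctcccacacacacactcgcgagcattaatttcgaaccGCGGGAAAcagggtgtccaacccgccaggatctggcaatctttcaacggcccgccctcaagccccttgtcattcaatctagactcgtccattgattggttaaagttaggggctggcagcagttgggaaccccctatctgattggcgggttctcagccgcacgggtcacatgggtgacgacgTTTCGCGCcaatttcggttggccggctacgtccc
Mcm3 (chr1:20820263-20820562, - strand): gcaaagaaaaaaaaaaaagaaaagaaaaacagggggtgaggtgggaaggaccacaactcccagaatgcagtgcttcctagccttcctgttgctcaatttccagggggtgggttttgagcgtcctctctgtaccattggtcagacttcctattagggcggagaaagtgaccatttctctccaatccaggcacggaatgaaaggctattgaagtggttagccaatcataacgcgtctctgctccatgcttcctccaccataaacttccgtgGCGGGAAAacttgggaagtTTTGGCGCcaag
Rprd1b is described among the falls. Bcmo1, the carotene oxygenase that RefSeq now names Bco1, differed by -4.16 ± 0.88 (SE) with all arrays, with an adjusted p of 0.0252, and by -4.04 without replicate 1, with an adjusted p of 0.0612. It was well above background on 1 of 6 knockout arrays. Mrps12, a protein of the mitochondrial ribosome, differed by 0.94 ± 0.20 (SE, adjusted p = 0.0274) and by 0.92 (adjusted p = 0.0612). Mcm7 and Mcm3, subunits of the replicative helicase, differed by -0.22 ± 0.19 and 0.14 ± 0.28 (SE) without replicate 1, with an adjusted p of 1 for both, and by -0.29 and 0.13 with it. A match to these letters is a description of the sequence and not evidence of binding.

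Among called genes with a symbol on the array, the largest rise in the knockouts was that of Adamts13, the plasma protease that cuts von Willebrand factor. Its single probe lies at chr2:26862185-26862244 of mm9, on the chromosome of E2f1 but far from it. It lay at -7.93, -7.16 and -5.78 (lowest, median, highest) in wild types, and was not well above background on any of their arrays. In knockout replicates 2 to 6 it lay at -2.04, -1.99 and -1.37, and in replicate 1 at -2.56. No knockout mouse came near the wild-type range. The fitted difference was 5.07 ± 0.53 (SE, adjusted p = 3.1e-06) with all arrays and 5.20 ± 0.56 (adjusted p = 3.96e-06) without replicate 1. Since the wild-type level is only a bound, the rise was at least 8.86-fold without replicate 1 and at least 8.11-fold with it. Within each of the 2 scan dates that held both groups, 3 wild-type and 2 knockout arrays differed by 5.85 and 4.44. Adamts13 was the 1 called member of 29 coagulation and fibrinolysis genes, where 0.266% to 0.333% of all genes were called. The median of that list was -0.03 without replicate 1 and 0.02 with it.

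Further rises were seen in genes of unrelated function. Rab6b, a small GTPase of Golgi transport, lay at -7.93, -5.88 and -3.42 in wild types and at -2.44, -2.09 and -1.15 in knockout replicates 2 to 6, but at -5.29 in replicate 1. The measured difference was 3.99 ± 0.71 (SE) without that array and 3.43 with it, but only 1 of 6 wild-type arrays had it well above background, so that its size is uncertain. Syngr4, a synaptogyrin of vesicle membranes, lay at -3.77, -3.48 and -3.15 in wild types and at -1.68, -0.93 and -0.60 in knockouts, with replicate 1 at -0.09. All 6 knockouts exceeded all wild types, and the difference was 2.47 ± 0.35 (SE, adjusted p = 0.000264) without replicate 1 and 2.63 (adjusted p = 7.83e-05) with it. Nsun7, of the RNA methyltransferase family, was dim on all arrays. It was well above background on 0 wild-type arrays and on 3 of the 5 knockout arrays without replicate 1. The bound on its rise was 1.75-fold without replicate 1 (adjusted p = 0.0181) and 1.45-fold with it (adjusted p = 0.0366). Since some knockout arrays did not measure it, these bounds are uncertain.

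Mogat1, which makes diacylglycerol from monoacylglycerol, lay at -3.28, -2.88 and -2.04 in wild types and at -1.61, -0.98 and -0.88 in knockout replicates 2 to 6, with replicate 1 at -0.69. The difference was 1.56 ± 0.29 (SE, adjusted p = 0.0089) without replicate 1 and 1.64 (adjusted p = 0.00326) with it. Of 23 genes for fatty acid and triglyceride synthesis, 0 were called by limma in either fit, where 0.266% to 0.333% of all genes were. Without replicate 1, 1 of them had an unadjusted p under 0.05, beside 5.36% of all genes. Cdkn1b lay at -1.48, -0.96 and -0.06 in wild types and at 0.23, 0.71 and 1.22 in knockout replicates 2 to 6, with replicate 1 at 0.53. The groups did not overlap, and the difference was 1.57 ± 0.33 (SE, adjusted p = 0.0262) without replicate 1 and 1.53 (adjusted p = 0.0182) with it. The rise rests on 1 of 3 probes, the one nearest the 3′ end at chr6:134875215-134875274 (mm9). The other probes differed by -0.57 and -0.39, with an adjusted p of 1 each in a fit by probe. Snhg11, a long noncoding host of small nucleolar RNAs, was called only without replicate 1. It then differed by 2.08 ± 0.46 (SE, adjusted p = 0.0429), against 1.74 (adjusted p = 0.146) with all arrays. Replicate 1 lay at -2.87, inside the wild-type range of -3.69 to -2.32.

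Among the falls named by the rule, Cxcl14, a chemokine made by epithelia, had the largest difference. It lay at -0.47, 1.25 and 1.92 in wild types and at -3.51, -3.14 and -2.11 in knockout replicates 2 to 6. Replicate 1 lay at -0.64, just below the lowest wild-type mouse. The difference was -3.81 ± 0.68 (SE, adjusted p = 0.00527) without it and -3.44 (adjusted p = 0.0133) with it. Cxcl14 was the 1 called member of 25 chemokines, where 0.266% to 0.333% of all genes were called. The median of the list was -0.05 without replicate 1 and 0.74 with it.

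Other falls named by the rule included those of Cd209f and Zc3h12d. Cd209f, a C-type lectin of the DC-SIGN family, lay at -1.72, -0.91 and 0.18 in wild types and at -5.34, -3.61 and -2.01 in knockout replicates 2 to 6, with replicate 1 at -4.77. All knockouts lay below all wild types, and the difference was -2.90 ± 0.53 (SE, adjusted p = 0.00631) without replicate 1 and -3.07 (adjusted p = 0.00205) with it. Its second probe differed by -1.87 without replicate 1, with an adjusted p of 0.145. Zc3h12d, a zinc-finger protein of the regnase family that degrades cytokine mRNA, lay at -2.09, -1.69 and -0.75 in wild types and at -4.78, -4.35 and -4.13 in knockout replicates 2 to 6, with replicate 1 at -3.92. Its difference was -2.86 ± 0.56 (SE, adjusted p = 0.0133) without replicate 1 and -2.77 (adjusted p = 0.00947) with it. Zc3h12d was well above background on 2 of knockout replicates 2 to 6, so that the size of its fall is uncertain. Kupffer cell markers were read beside these genes, and no test of the list was run. Of the 19 measured, 0 were called by limma in either fit, where 0.266% to 0.333% of all genes were. Without replicate 1, 0 had an unadjusted p under 0.05, beside 5.36% of all genes. The summed linear level of the 19 markers was 145 to 203 in wild types, 134 to 201 in knockout replicates 2 to 6 and 233 in replicate 1. In tissue RNA, fewer cells of a type and less RNA per cell cannot be told apart.

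Sorl1, a sorting receptor that binds apolipoprotein E, lay at -4.09, -3.78 and -3.59 in wild types and at -6.80, -6.62 and -5.95 in knockout replicates 2 to 6, where it was not well above background on any array. The fall was therefore at least 1.79-fold (adjusted p = 0.000236) without replicate 1 and at least 1.63-fold (adjusted p = 0.000128) with it. Fras1, an extracellular matrix protein of basement membranes, was likewise not well above background in any of these 5 knockouts. Its fall was at least 2.35-fold (adjusted p = 0.000264), and with replicate 1 the adjusted p was 7.83e-05. Otog, known as the inner ear protein otogelin, lay at -1.55, -0.41 and 0.43 in wild types and at -5.25, -3.92 and -2.16 in knockout replicates 2 to 6, with replicate 1 at -2.40. Its difference was -3.39 ± 0.59 (SE, adjusted p = 0.00494) without replicate 1 and -3.14 (adjusted p = 0.00682) with it. Otog was well above background on 2 of knockout replicates 2 to 6, so that the size of its fall is uncertain.

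Pik3c2g, the class II phosphoinositide 3-kinase of hepatocytes, lay at 0.53, 1.25 and 1.66 in wild types and at -1.30, -0.85 and -0.61 in knockout replicates 2 to 6. The difference was -2.09 ± 0.37 (SE, adjusted p = 0.00527) without replicate 1, which lay at -0.55, and -2.03 (adjusted p = 0.00388) with it. It rests on 1 of 3 detected probes. The other 2 differed by -0.22 and -0.57, with an adjusted p of 1 each. Rprd1b, which binds the tail of RNA polymerase II, lay at 1.00, 1.63 and 2.87 in wild types and within -0.52 to -0.19 in all 6 knockouts. The difference was -2.14 ± 0.38 (SE, adjusted p = 0.00527) without replicate 1 and -2.15 (adjusted p = 0.00205) with it. The second probe of Rprd1b, well above background on every saline array, differed by -0.40 with an adjusted p of 1. Bmp2k, a kinase of the numb-associated family, differed by -2.15 ± 0.31 (SE, adjusted p = 0.000362) without replicate 1 and -1.98 with it, but its other 2 probes differed by -0.39 and 0.03 with an adjusted p of 1 each. Npcd and V1ri10, the latter a vomeronasal receptor that RefSeq names Vmn1r216, differed by -2.18 and -2.27 without replicate 1 and by -2.06 and -2.01 with it. Each was well above background on 1 of knockout replicates 2 to 6. V1ri10 belongs to a family of near-identical genes that can share signal.

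Arsk, a lysosomal sulfatase, was called in opposite directions by its 2 probes. The brighter probe, at chr13:76199926-76199985 (mm9), lay between -0.83 and -0.50 in wild types and between -3.48 and -2.37 in all 6 knockouts. It differed by -2.16 ± 0.33 (SE, adjusted p = 0.000623) without replicate 1 and -2.14 with it. The dimmer probe, about 1 kb away at chr13:76198809-76198868, differed by 4.09 in the other direction, with an adjusted p of 0.00021 in a fit by probe. No direction can therefore be given for the gene. Over the 30 called genes with more than 1 probe, 35 other probes were above background on some array. Of these, 27 changed in the same direction and 6 were called in that direction as well.

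**Figure D2:**
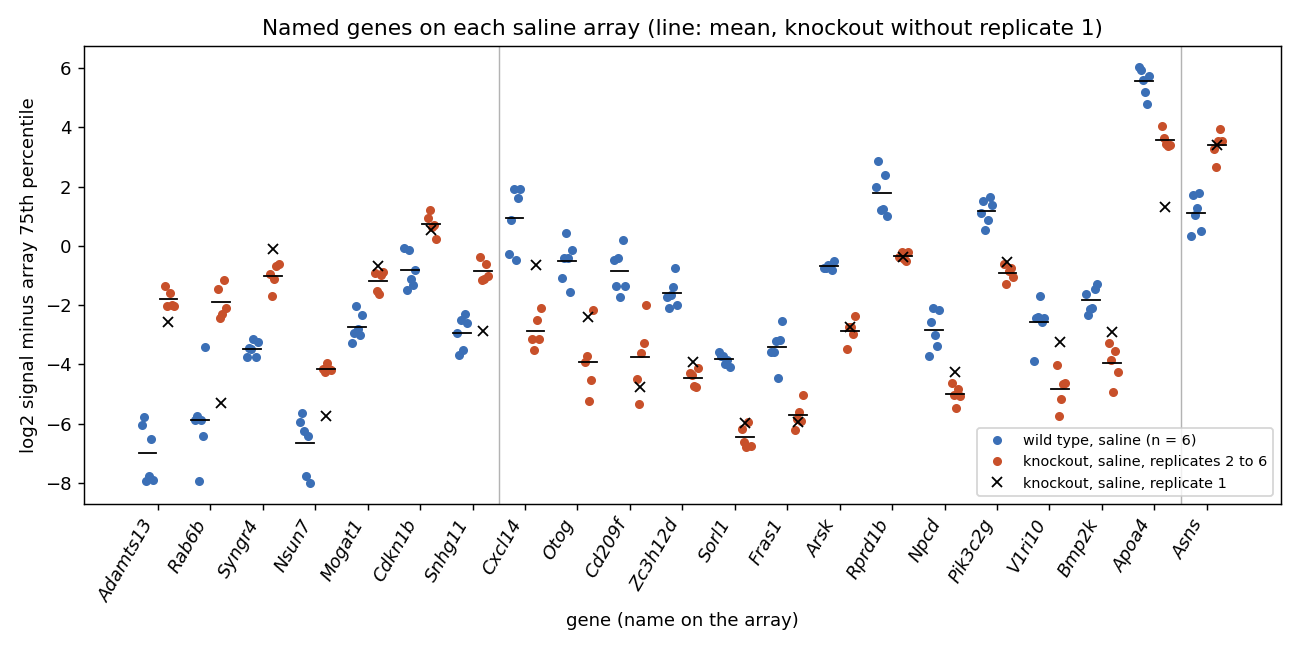
Log2 signal relative to the array's 75th percentile (vertical axis) for 21 named genes (horizontal axis) on the 12 saline arrays; each point is 1 mouse and each line a group mean, that of the knockouts without replicate 1. Genes left of the first rule are higher in knockouts, those between the rules lower, and Asns at the right was called with all arrays only. Replicate 1, a cross, lies within the wild-type range for Rab6b, Nsun7, Snhg11 and V1ri10, and at 1.32 below every other mouse for Apoa4.

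Among metabolic and plasma protein lists, calls were single genes. Apoa4, an apolipoprotein of chylomicrons and high-density lipoprotein, was the 1 called member of 20 negative acute-phase and plasma proteins. It lay at 4.81, 5.67 and 6.05 in wild types and at 3.37, 3.44 and 4.04 in knockout replicates 2 to 6, with replicate 1 at 1.32. The difference was -1.97 ± 0.37 (SE, adjusted p = 0.0089) without replicate 1 and -2.35 with it. A probe without a gene name that lies beside it on chromosome 9, A_51_P327496, differed by -1.97 (SE 0.36, adjusted p = 0.00582) without replicate 1 and -2.28 with it. Asns, asparagine synthetase and a target of the amino acid stress response, lay at 0.34, 1.17 and 1.77 in wild types and at 2.67, 3.53 and 3.95 in knockout replicates 2 to 6, without overlap. It was called with all arrays (2.29 ± 0.53, SE, adjusted p = 0.0469) and not without replicate 1 (2.29 ± 0.56, adjusted p = 0.088). Of 48 lists of liver, immune, cell-cycle and marker genes, 44 held 0 genes called by limma in either fit, which is near the background at 0.266% to 0.333% of all genes called. These included 35 cytochrome P450 genes with a median of 0.03 without replicate 1 and -0.04 with it. They also included 21 bile acid genes with -0.13 and -0.20, and 32 subunits of oxidative phosphorylation with -0.20 and -0.14. Without replicate 1, an unadjusted p under 0.05 was reached by 2, 2 and 0 of them, beside 5.36% of all genes.

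Inflammatory lists depended on knockout replicate 1. The median of 45 interferon-stimulated genes was 0.43 with all arrays and -0.30 without it, that of 16 cytokines 0.50 and -0.03, and that of 19 neutrophil genes 0.53 and -0.26. The summed linear level of the neutrophil genes was 548 on that array, against 3.74 to 25.7 in wild types and 2.87 to 9.81 in the other knockouts. The median of 25 cholesterol genes was -0.55 with all arrays and -0.23 without it. Over all lists, the median moved by more than the spread between wild-type mice for 15 of 48 when this array was left out.

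Genes of MHC class II antigen presentation, which display peptides on macrophages, dendritic cells and B cells, showed differences that missed the adjusted threshold. All 8 measured members had higher means in the knockouts, with a median of 1.02 without replicate 1 and 0.96 with it. Of these, 6 had an unadjusted p under 0.05, beside 5.36% of all genes, and 0 were called by limma. Cd74, the invariant chain, lay at 2.50, 2.93 and 3.57 in wild types and at 3.41, 3.71 and 4.98 in knockout replicates 2 to 6, so that the groups overlapped (adjusted p = 0.663). Ciita, the master regulator of these genes, was the 1 member whose groups did not overlap (1.25 ± 0.47, SE, adjusted p = 0.621, without replicate 1 and 1.19, adjusted p = 0.481, with it). In mice given LPS, 2 of the 8 were higher in knockouts at 6 h and 8 of 8 at 20 h, with medians of -0.70 and 0.74. B cell markers had a median of 0.26 without replicate 1 and 0.19 with it, Kupffer cell markers one of 0.07 and 0.007, and their part in the class II difference was not tested.

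The list with the highest median, 1.54 for 9 adipose and muscle markers without replicate 1, was high in 1 mouse. On knockout replicate 5 the summed linear level of these genes was 155, against 0.68 to 3.06 in wild types, 0.92 to 1.33 in knockout replicates 2, 3, 4 and 6, and 6.17 in replicate 1. Tnnt3, a troponin of fast muscle, stood at 3.50 on that array and between -8.01 and -5.68 in wild types. Adipoq, the adipocyte hormone adiponectin, stood at 1.72 on it and between -7.93 and -2.53 in wild types. With replicates 1 and 5 both left out, a setting added after the values were seen, the median was -0.10 and 4 of the 9 were higher. The median of the MHC class II list was 0.97 under the same setting.

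**Figure D3:**
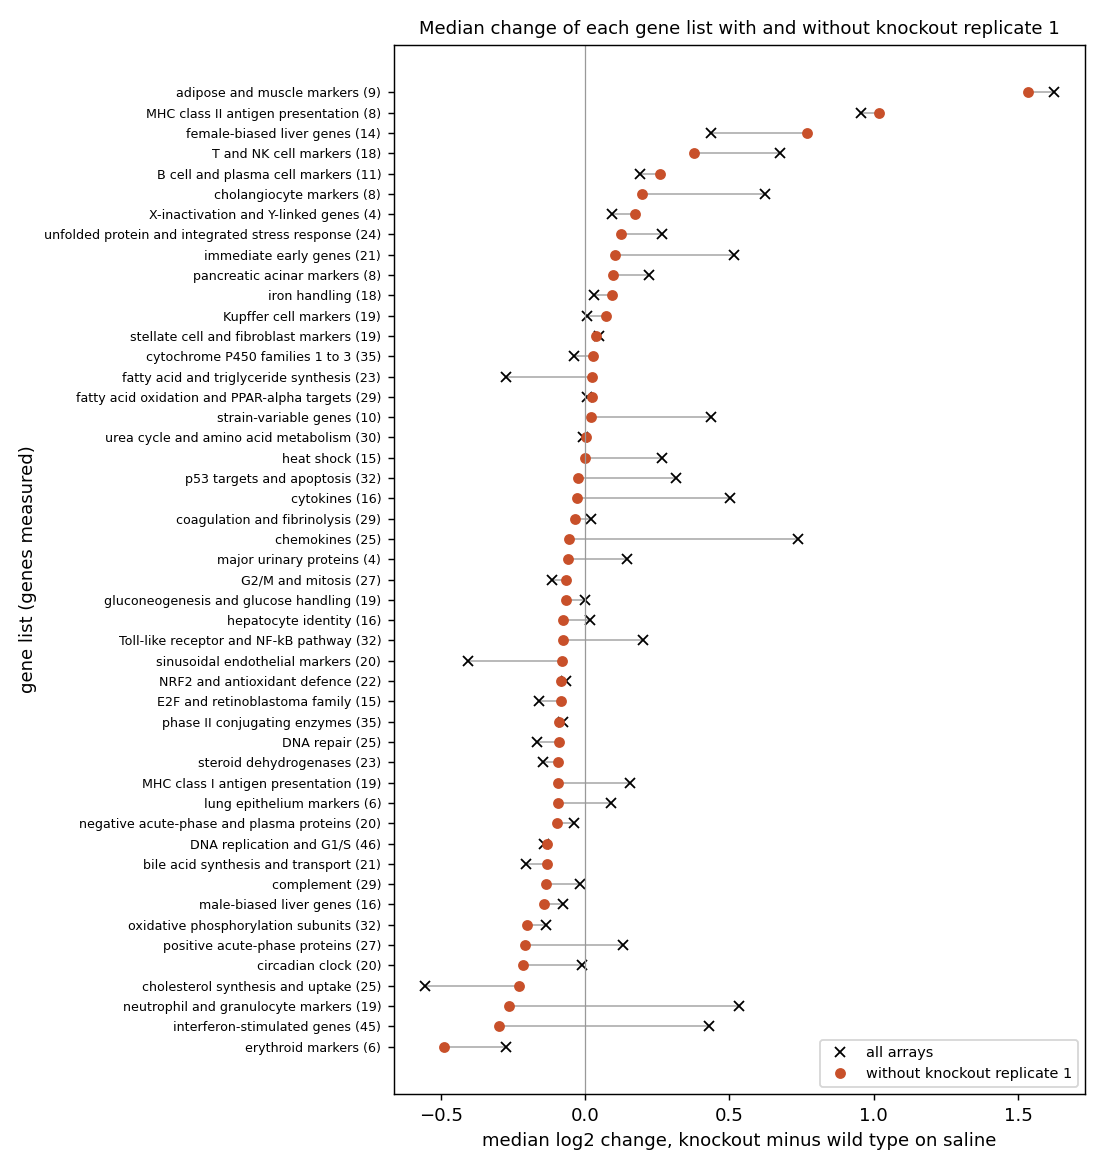
Median log2 difference, knockout minus wild type on saline (horizontal axis), of 48 gene lists (vertical axis, number of genes measured in brackets), with all arrays (crosses) and without knockout replicate 1 (circles). Chemokines move from 0.74 to -0.05, and adipose and muscle markers stay highest in both, at 1.62 and 1.54.

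The mice given LPS were other animals than the saline mice, and they held the only repeat of the genotype difference. Of the 46 genes called in both saline fits, 44 had the same direction at 6 h of LPS (95.7%) and 40 at 20 h (87%). Over all genes tested these shares were 51% and 47.9%. Direction was counted at any size. Cxcl14 counted as the same at 6 h with a difference of -0.001, and it differed by -1.11 at 20 h. Zc3h12d went the other way at 6 h (0.35), and Mogat1 did so at 20 h (-0.27). The differences were smaller after LPS. For the 46, the median ratio of the LPS difference to the saline difference without replicate 1 was 0.472 at 6 h and 0.346 at 20 h. Of the 46, 7 were called in the same direction at 6 h, where 1.23% of all genes were called, and 5 at 20 h, where 0.323% were. None of the 46 was called in the opposite direction by limma at either time. Without knockout LPS 6 h replicate 1, 42 of the 46 had the same direction at 6 h.

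**Figure D4:**
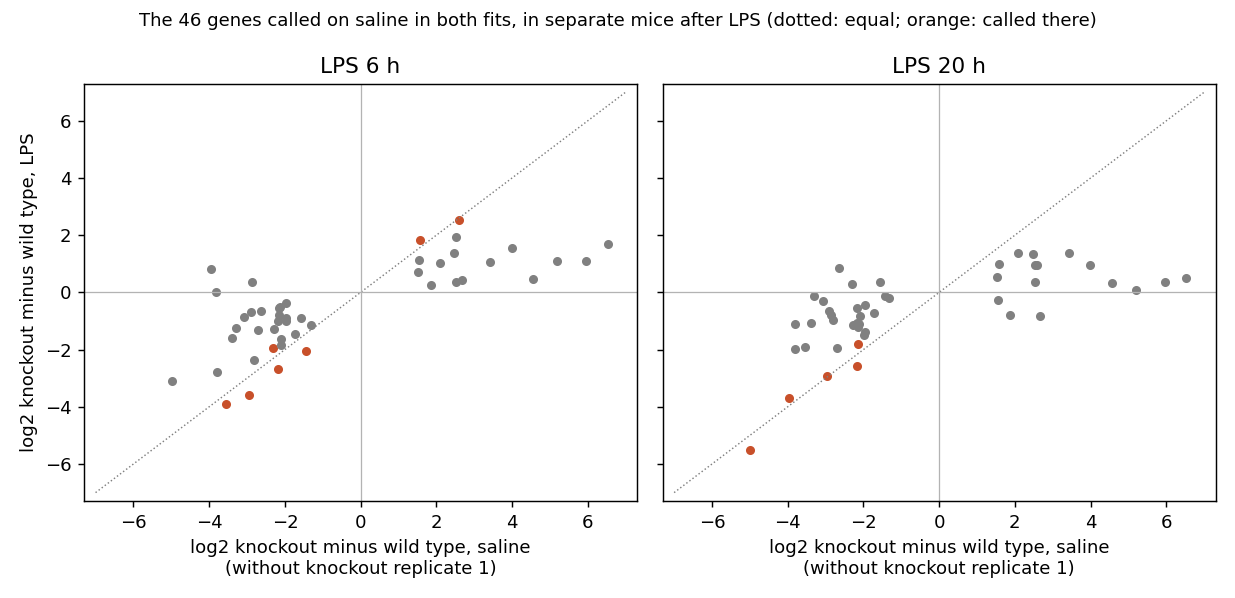
Log2 difference, knockout minus wild type, after LPS (vertical axis, left 6 h, right 20 h) against that on saline without knockout replicate 1 (horizontal axis) for the 46 genes called on saline in both fits; each point is 1 gene. Points in orange were called after LPS as well, 7 at 6 h and 5 at 20 h, and 44 and 40 genes lie on the side of their saline difference.

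Cdkn1b and Igsf23 were among those called again at 6 h. Cdkn1b was higher in knockouts by 1.84 at 6 h (adjusted p = 0.0133) and by 1.00 at 20 h (adjusted p = 0.252). Igsf23, an immunoglobulin superfamily gene listed on the array as 2210010C17Rik, lay between 0.37 and 1.26 in wild types on saline and between -3.22 and -2.45 in all 6 knockouts. It differed by -3.55 on saline without replicate 1 (-3.64 with it), by -3.90 at 6 h (adjusted p = 0.02) and by -1.92 at 20 h (adjusted p = 0.424). At 20 h, 3 wild-type mice lay between 0.29 and 1.32 with the wild-type saline mice, and the other 3 lay between -4.35 and -3.40 with the knockouts. This gene and the next 4 identifiers were chosen after their values were seen.

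For another group of genes the wild-type mice given LPS were unlike the wild-type saline mice. Adamts13 lay at -6.35 in 1 wild-type mouse at 6 h, and the other 3 lay between -2.40 and -2.23, with the knockouts. C330011K17Rik, the zinc-finger gene Zfp874a, rose in saline knockouts by 5.97 ± 0.42 (SE, adjusted p = 5.06e-10) without replicate 1 and by 5.27 with it, with 2 of 6 wild-type arrays well above background. It lay between -6.43 and -4.36 in wild types and between 0.67 and 1.16 in knockout replicates 2 to 6, while replicate 1 lay at -3.27. At 20 h all 6 wild types lay between -0.63 and 0.68, against -0.18 to 0.80 in knockouts. NAP062699-1 and the locus that RefSeq names Gm7969 were also higher in saline knockouts, with an adjusted p of 2.81e-05 and 0.000133 without replicate 1 and 0.000138 and 0.0182 with it. Each was well above background on 1 of 6 wild-type saline arrays, so that the size of the rise is uncertain. At 20 h, where all arrays measured them, they differed by 0.51 and 0.35. AK035950 was not well above background on any knockout array on saline or after LPS. On saline it was at least 6.99-fold lower without replicate 1 (adjusted p = 0.00112) and at least 6.39-fold lower with it (adjusted p = 0.000618). At 6 h, 2 of 4 wild types, at -6.25 and -6.54, lay among the knockouts at -7.86 to -5.70, with an adjusted p of 0.0859. At 20 h the 6 wild types lay between -2.75 and -1.18 and the 6 knockouts between -8.09 and -6.21 (adjusted p = 0.000559).

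Each of the 46 genes was then set against the midpoint of its saline groups. Most of the 10 wild-type LPS arrays fell on the knockout side of that midpoint for 21 of the 46, and most of the 10 knockout LPS arrays did so for 39. For 12 of the 46, most wild-type arrays stayed on the wild-type side and most knockout arrays on the knockout side. Knockout saline replicate 1 fell on the knockout side for 35 of the 46. These counts were not made for all genes. The midpoints come from the saline values that selected the genes, so other animals could cross them through the selection alone. An effect of LPS in wild types and a difference between the animals of the saline and LPS groups cannot be told apart, since each animal received 1 treatment.

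**Figure D5:**
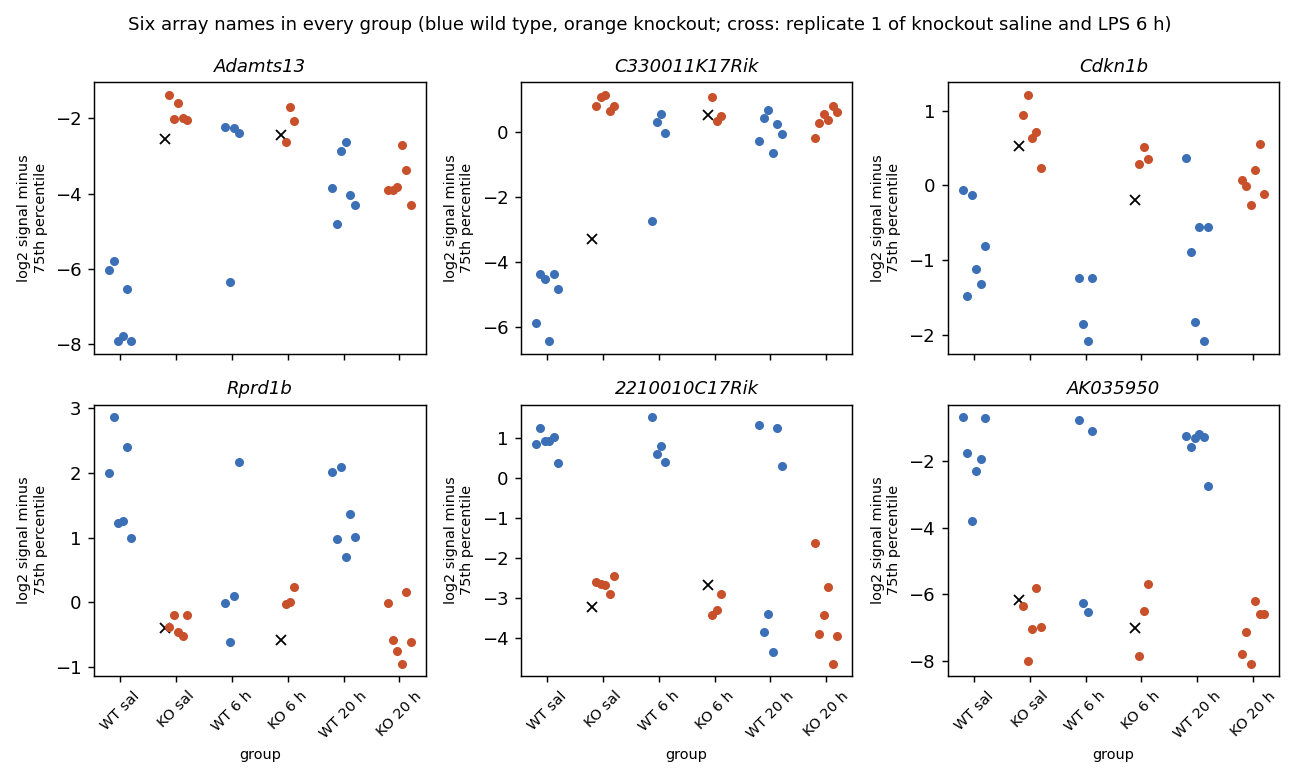
Log2 signal minus the 75th percentile (vertical axis) of 6 array names in the 6 groups (horizontal axis, wild type blue, knockout orange); each point is 1 mouse, and the crosses are replicate 1 of the knockout saline and LPS 6 h groups. AK035950 at 20 h of LPS spans -2.75 to -1.18 in wild types and -8.09 to -6.21 in knockouts, while C330011K17Rik at 20 h of LPS spans -0.63 to 0.68 in wild types and -0.18 to 0.80 in knockouts.

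The position of the called genes on the genome was described because a knockout allele is bred together with the chromosome around it. Of 226 measured genes within 10 Mb of E2f1, 2 were called with all arrays (0.885%) and 3 without replicate 1 (1.33%). Over all genes tested the shares were 0.333% and 0.266%. Within 20 Mb the counts were 2 and 3 of 367, or 0.545% and 0.817%. These counts are small, and whether they exceed the share over all genes was not tested. The 3 were Rprd1b, Snhg11 and AK035497. AK035497, an RNA without a gene name, differed by -1.96 ± 0.34 (SE, adjusted p = 0.00494) without replicate 1 and -1.70 (adjusted p = 0.0214) with it. It was well above background on 1 of knockout replicates 2 to 6, so that the size of its fall is uncertain. Called genes also lay near one another. Of the 69 called in either fit, 21 had another within 1 Mb. These include Rprd1b with Snhg11, and Apoa4 with the unnamed probe beside it. No such share was computed for all genes, so the count shows no excess. Some neighbours went in opposite directions. Examples without replicate 1 were Rshl1 and 2210010C17Rik (2.52 and -3.55), Lgals4 and Ppp1r14a (2.18 and -2.47), and Syngr4 and Otog (2.47 and -3.39). On chromosome 13, C330011K17Rik, 3830402I07Rik and Gm7969 followed one another within gaps of 0.243 and 0.268 Mb, and all 3 were higher in knockouts. 3830402I07Rik, the zinc-finger gene Zfp738, was called higher by limma without replicate 1 (adjusted p = 0.0359) and not with it (adjusted p = 0.0976). It was well above background on 0 wild-type arrays and on 2 of knockout replicates 2 to 6. The 1.14-fold bound on its rise without replicate 1 is therefore uncertain. On chromosome 5, Fras1 and Bmp2k lay 0.307 Mb apart and both were lower. On chromosome 8, Zdhhc2, Cnot7 and Frg1 lay within 1 Mb and differed by -1.33, -1.33 and -1.04 with all arrays. Without replicate 1 their adjusted p was 0.00654, 0.0871 and 0.0856. These neighbours were chosen after their values were seen. Zinc-finger genes of such clusters resemble one another in sequence, and signal shared between them was not tested.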

How the data were processed

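Total RNA of 32 mouse livers was hybridised in 1 colour (Cy3) to Agilent arrays of 43379 non-control spots. Per the file headers, the deposited scanner files hold spot intensity from Feature Extraction 10.7.1.1, and the authors' processed signal is already background-corrected. The authors' deposited log2 table of 23916 probes, with normalization not given in the sources used here, served as an alternative only. Its array medians ran from 8.80 to 8.91, its scale follows log2 of the scanner signal with a slope of 0.77 to 0.86, and how it was centred is unknown.

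The log2 processed signal minus the 75th percentile of each array was used. That percentile was 281 to 895 on the saline arrays, and the number of arrays limits the precision. Outlier spots were left out, spots of a probe were averaged, and a probe entered if 4 or more arrays had it well above background, which 28337 did. The brightest probe stood for each of 19199 names, of which 15702 matched RefSeq. 361 missing values stayed missing. limma 3.58.1 in R 4.3.3 was fitted with group means over 32 arrays, two-sided, and again without knockout saline replicate 1. A bound on a fold is the bright group's mean against the dim group's mean, in which a dim probe takes the lowest signal well above background of its array where that is higher. Named genes were E2f1, the largest rises and falls called in both fits with separated groups, called and brightest members of the lists, and called genes near E2f1. The members and lists were chosen with earlier results of these data known. On simulated data for this comparison with all arrays (18867 genes), 50 changes were planted at each size. Of these, 42% were recovered at 1 on the log2 scale, 62% at 2 and 98% at 3. The simulation gave 157 calls, more than the 64 real ones. Its noise was normal and independent between genes, and no array deviated from its group. Recovery in the real data may therefore be lower. Mice were not treated as paired by replicate number in these fits. Correlations between wild-type and knockout saline arrays of the same number, after removing group means, ran from -0.102 to 0.25. Such values cannot settle whether the mice were paired.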

Additional observations from a re-analysis of the deposited data

Results flagged for a closer look

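In a group of 6 mice, 1 value was taken as standing far from the others when its gap to the nearest one was a large share of the whole range of the group. Chance alone gives this for about 1 in 20 groups. It was found for 18 of 82 groups examined, and in 14 of them the array was knockout saline replicate 1. That array had been singled out beforehand for its likeness to LPS at 6 h, and the inflammatory genes and the score restate it, so that this tally adds no separate evidence. The share was 0.93 for the score along the LPS response. Among inflammatory genes the share was 0.654 for Cxcl1, 0.779 for Cxcl10, 0.757 for Tnf, 0.692 for Il6, 0.934 for Il1b and 0.627 for Mx1. G0s2, an inhibitor of fat breakdown, had 0.718, here because the array was low. Among the genes that differ between genotypes, the share was 0.688 for Rab6b, 0.833 for Nsun7, 0.694 for Snhg11, 0.753 for Apoa4, 0.889 for C330011K17Rik and 0.714 for Gm7969. On Rab6b, Nsun7, Snhg11, C330011K17Rik and Gm7969 the array lay nearer to the wild types than the other knockouts did.

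In the wild-type saline group, replicate 5 was the array found each time. The share was 0.705 for Cxcl10 and 0.755 for the score along the LPS response, on which it was highest at 0.08. It was 0.847 for NAP062699-1 and 0.648 for 3830402I07Rik, which was low there. Without this array, 51 genes were called between the genotypes on saline.

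The interaction term of the limma fit was read only for named genes and chosen identifiers that were called on saline. Among these, the genotype difference itself differed between saline and LPS for 4 genes. The fit used all arrays, with Benjamini-Hochberg adjustment over all genes. The genes read were picked for a large saline difference, so a smaller difference after LPS is partly set by the selection. For Adamts13 the adjusted p was 0.0409 at 6 h and 0.00244 at 20 h, the rise being at least 8.11-fold on saline and the difference 0.08 at 20 h. For C330011K17Rik it was 0.0494 at 6 h and 0.00549 at 20 h, with 5.27 on saline, 1.09 at 6 h and 0.35 at 20 h. For Sorl1 it was 0.0021 and for Fras1 0.00549 at 20 h. At that time Fras1 was well above background on 0 of 12 arrays and Sorl1 on 1 of 12, and neither was on any knockout saline array. These 2 values therefore compare signals near background and give no size. Without the 2 libraries that stand apart, the adjusted p at 6 h was 0.063 for Adamts13 and 0.00292 for C330011K17Rik. With the same libraries left out, the adjusted p at 20 h was 0.00322 for Adamts13, 8.29e-06 for C330011K17Rik, 0.000128 for Sorl1 and 0.0104 for Fras1.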

How the results depend on the processing

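The 64 calls with all arrays became 37 with slide as a block, 12 and 7 within the first and the second scan date, 213 with array weights and 25 at an adjusted p under 0.01. The 51 calls without knockout replicate 1 became 131 with the saline arrays alone, 12 and 7 within those dates, 208 with array weights and 27 at the stricter threshold. The causes were not tested, except that the scan dates hold fewer arrays. The third scan date held no wild-type saline array. Leaving out 1 array at a time gave 37 to 64 calls with all arrays and 29 to 60 without replicate 1, lowest without knockout replicate 4 (29) and replicate 3 (30). All other settings stayed within 1.5 times of the main counts. Calls split 26 higher to 38 lower, but 24 to 58 after normexp with quantile normalization and 26 to 67 in the deposited table. With the replicate number as a block, 57 and 55 genes were called. All 46 shared calls kept their direction within both scan dates, whose arrays had also entered the fit. Arsk turned to 0.80 when its probes were averaged, because they oppose one another. Calls were lost in 13 of 26 settings for Rab6b, 14 of 25 for Nsun7, 14 of 27 for V1ri10, 17 of 27 for Asns, 7 of 27 for AK035497 and 6 of 27 for Cdkn1b. Signal over background limits Adamts13, Nsun7, Sorl1, Fras1, AK035950 and 3830402I07Rik, which are only bounded in 1 group. It also limits sizes for Rab6b, NAP062699-1, Gm7969, Bcmo1, Npcd, V1ri10 and AK035497, which 1 array of a group measured in at least 1 fit. Zc3h12d, Otog and Tnfrsf14 were measured on 2 of knockout replicates 2 to 6, so that their sizes are uncertain as well.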

Other observations

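The called genes below lie outside the rule for named genes and were chosen after their values were seen. Nnmt, which methylates nicotinamide, and Lgals4, a galectin of the gut, were higher in knockouts by 2.58 and 2.46 with all arrays (adjusted p = 0.0257 and 0.0255). Without replicate 1 they differed by 2.15 and 2.18 and were not called. Atp10d, a phospholipid flippase, differed by 2.98 with all arrays (adjusted p = 0.0182) and by 2.52 without replicate 1 (adjusted p = 0.0609). Slc27a1, a fatty acid transport protein, was lower by -1.31 ± 0.29 (SE, adjusted p = 0.0359) without replicate 1 and -1.21 (adjusted p = 0.0474) with it. The second probe of Slc27a1, well above background on every saline array, differed by 0.16 without replicate 1. Ccr3, the eotaxin receptor, and Tnfrsf14, a receptor of the TNF family, were lower by -1.57 and -2.11 (adjusted p = 0.0238 and 0.00682) without replicate 1, and by -1.50 and -1.88 with it. Ccr3 was well above background on 3 and Tnfrsf14 on 2 of knockout replicates 2 to 6, so that these sizes are uncertain. Sugct, listed as 5033411D12Rik, differed by -2.96 on saline without replicate 1 (-2.89 with it), by -3.58 at 6 h of LPS (adjusted p = 0.0105) and by -2.94 at 20 h (adjusted p = 0.0169). The saline groups overlapped, since wild-type replicate 6 lay at -2.03, within the knockout range of -2.37 to -1.01. After LPS, 0 of 4 wild types at 6 h and 1 of 6 at 20 h lay on the knockout side of the saline midpoint.

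Genes with higher expression in female liver had a median of 0.77 over 14 members without replicate 1 and of 0.44 with it. Of these, 0 were called by limma, where 0.266% to 0.333% of all genes were. Without replicate 1, 2 had an unadjusted p under 0.05, beside 5.36% of all genes. The median of 16 male-biased genes was -0.14 without replicate 1 and -0.08 with it. The labels do not give the sex of the mice, but Eif2s3y, a Y-linked gene, was well above background on all 12 saline arrays, at 1.64 to 2.61 in wild types and 1.89 to 2.50 in knockouts.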
